A study of Mus musculus with 4 samples.

Results

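The genes described here encode the machinery by which mouse cells show peptides from their own cytosol to CD8 T cells. The 10 genes were H2-K1, H2-D1, B2m, Tap1, Tap2, Tapbp, Psmb8, Psmb9, Psmb10 and Psme1, a list of symbols that uses no measured value, and all 10 were among the 16593 genes measured. RNA from whole liver of mice 4 weeks old was read on 4 Illumina arrays, 2 for WT and 2 for TAK1 KO. The WT mice carried the floxed TAK1 gene (genotype TAK1 flox) and the TAK1 KO mice the same floxed gene with Cre (Alb-Cre/ TAK1 flox). The albumin promoter that drives this Cre is active in hepatocytes, and which other cells of the liver lost the gene was not measured. Because the WT mice had no Cre, the presence of Cre and the deletion differ together. All mice were untreated, male by label and of the C57BL/6 strain. Nothing in the labels states that the 4 samples are from different animals, so SEs and p-values measure the spread between these samples, which may be technical.

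In the class I pathway the proteasome cuts cytosolic proteins into peptides, the transporter made of Tap1 and Tap2 carries them into the endoplasmic reticulum (ER), and Tapbp (tapasin) holds empty class I molecules at the transporter until a peptide binds. A class I molecule is a heavy chain, such as the H-2K and H-2D chains encoded by H2-K1 and H2-D1, paired with the light chain encoded by B2m. Interferon gamma exchanges the constitutive catalytic subunits of the proteasome for those encoded by Psmb8, Psmb9 and Psmb10, which gives the immunoproteasome, and raises Psme1, a subunit of the proteasome activator known as PA28. Hepatocytes at rest carry little class I on their surface, whereas Kupffer cells and sinusoidal endothelial cells of the liver carry more. TAK1 is the product of Map3k7 and relays signals of interleukin 1, TNF and Toll-like receptors to NF-kB, and class I promoters are a classic target of NF-kB and of interferon regulatory factors.

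The upstream sequences of 4 promoters are shown because the heavy chain and B2m promoters are known to answer to both routes, because H2-K1 passed the test and H2-D1 did not although these regions are close in sequence, and because Tap1 and Psmb9 share theirs. They were taken from RefSeq on GRCm38.p6. Each is the 250 bases before the annotated start, written 5′ to 3′ on the gene's strand, except that the last is the whole 225 bases between the divergent starts of Psmb9 and Tap1, on the strand of Tap1. H2-K1 lies at chr17:34000334-34000583 on the minus strand, H2-D1 at chr17:35262844-35263093 on the plus strand, B2m at chr2:122147437-122147686 on the plus strand and the shared Tap1 and Psmb9 region at chr17:34187331-34187555. Capitals mark matches on either strand to the NF-kB consensus or to the interferon response element GAANNGAAA. They also mark matches to TGACGC (a form of the core of site alpha), to CCAAT, or to the STAT element TTCNNNGAA.
H2-K1: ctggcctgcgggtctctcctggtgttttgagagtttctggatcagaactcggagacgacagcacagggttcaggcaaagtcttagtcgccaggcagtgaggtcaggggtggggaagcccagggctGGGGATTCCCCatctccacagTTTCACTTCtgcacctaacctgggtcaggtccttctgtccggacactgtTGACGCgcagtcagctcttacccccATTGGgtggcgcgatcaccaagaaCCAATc
H2-D1: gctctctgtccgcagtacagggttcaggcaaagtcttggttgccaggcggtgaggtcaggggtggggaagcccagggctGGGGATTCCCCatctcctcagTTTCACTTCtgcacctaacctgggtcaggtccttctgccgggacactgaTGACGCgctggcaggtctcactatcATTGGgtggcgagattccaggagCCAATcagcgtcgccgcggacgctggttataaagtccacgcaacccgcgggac
B2m: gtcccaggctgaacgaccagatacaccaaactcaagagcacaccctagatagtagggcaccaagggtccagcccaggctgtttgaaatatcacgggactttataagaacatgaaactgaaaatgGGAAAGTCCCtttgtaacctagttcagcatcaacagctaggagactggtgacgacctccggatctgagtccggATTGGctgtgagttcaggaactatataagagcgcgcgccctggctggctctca
Tap1 and Psmb9: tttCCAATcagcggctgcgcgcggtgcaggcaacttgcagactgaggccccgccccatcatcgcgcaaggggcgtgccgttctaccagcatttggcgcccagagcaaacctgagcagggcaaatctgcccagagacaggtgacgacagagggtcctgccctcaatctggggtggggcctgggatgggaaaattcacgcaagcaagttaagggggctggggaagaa

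Of the 10 genes 9 had a window in the RefSeq table (300 bases, 250 before and 50 after the start), and H2-K1 had 2 windows, of which the one nearer the gene is shown. The NF-kB consensus was matched in the windows of H2-K1, H2-D1 and B2m, and in 8.46% of the 32851 windows of all genes. GAANNGAAA was matched in H2-K1, H2-D1 and Psme1 (7.52% of all windows), TGACGC in H2-K1 and H2-D1 (7.40%), TTCNNNGAA in Psmb8 (8.30%) and CCAAT in 6 of the 9 genes (37.4%). The CCAAT matches of Tap1 and Psmb9 are the same bases of the shared region shown. Counts are of genes, whereas percentages are of windows. In H2-K1 and H2-D1 the same elements stood in the same order, with 21 bases from the first base of the NF-kB match to that of the interferon element and 49 bases from there to TGACGC. Aligned over 202 bases, the upstream sequences of H2-K1 and H2-D1 were identical at 177 (87.6%). The NF-kB stretch of H2-K1 and of H2-D1 holds 2 matches shifted by 1 base, and matches to different motifs did not overlap in the 4 sequences. Only these patterns were searched, so variants are not marked. B2m holds gaaactgaaa, with 1 base more between GAA and GAAA than the pattern allows. B2m and the shared Tap1 and Psmb9 region hold tgacga, which differs from TGACGC in its last base. A missing match thus does not show that an element is absent. A match describes letters and is not a measured binding site.

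The 4 arrays were of like brightness, with medians of 81.5 to 81.9 units and 40.6% to 40.9% of probes above 100 units, the level below which values are treated here as dim. Every sample is labelled as male. Xist, which female cells make from their inactive X chromosome, nevertheless read 575.0 to 853.4 units over the 4 arrays, while of the Y-linked genes Kdm5d read 54.5 to 59.7 units, Eif2s3y 53.3 to 69.3 and Uty 112.4 to 142.2. Of 17 hepatocyte markers 15 lay above 100 units on all 4 arrays. Map3k7 read 155.0 and 138.4 units on the WT arrays, against 125.3 and 117.9 on the TAK1 KO arrays on 1 probe and did not pass the test (log2 difference -0.26 ± 0.10 SE, n = 2 per group, adjusted p = 0.116 in limma). Since the part of the transcript that this probe reads is not known here, it does not check the genotype labels.

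Of the 10 class I and immunoproteasome genes 1, H2-K1, was lower in TAK1 KO livers and 0 were higher, with a threshold of 0.05 on the adjusted p from limma, and the same counts held at an unadjusted p of 0.05. Over all genes the same test called 18.2%, with 10.5% higher and 7.70% lower in TAK1 KO, so that 1 fall in 10 is near the background. In whole liver, fewer cells of a type and less RNA per cell cannot be told apart. All 10 genes lay above 100 units on all 4 arrays, and of the 7790 genes this bright on 2 or more arrays it called 36.7%, with 20.8% higher and 15.8% lower. The median log2 difference of the 10 genes was -0.06, against -0.0035 over all genes, and the median size of the difference, sign left out, was 0.068 against 0.253 over the 7790 brighter genes. These differences are TAK1 KO minus WT on a log2 scale after background correction with an offset of 50 units, which understates the change of dim genes.

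H2-K1 encodes the heavy chain of H-2K, a classical class I molecule that presents peptides to CD8 T cells. Its probe read 328.9 and 273.7 units on the WT arrays, against 195.3 and 225.8 on the TAK1 KO arrays. Both TAK1 KO arrays lay below both WT arrays, and H2-K1 was 1.42-fold lower (log2 -0.51 ± 0.12 SE, n = 2 per group, 95% interval -0.78 to -0.24, adjusted p = 0.0172 in limma). A further probe of H2-K1, which is slightly the brighter of the pair on the linear scale, read 337.8 and 290.0 units on the WT arrays, against 201.0 and 200.4 on the TAK1 KO arrays. It gave a 1.55-fold lower level (log2 -0.63 ± 0.10 SE, adjusted p = 0.00301 over all probes), so both probes of the gene fell. On the first probe the call was lost without WT replicate 1, the brightest array (log2 -0.37, adjusted p = 0.152), and on the further probe it was not (log2 -0.52, adjusted p = 0.0346 without WT replicate 1).

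H2-D1, the heavy chain of the other classical class I molecule of this strain, read 837.6 and 739.8 units on the WT arrays, against 707.6 and 822.3 on the TAK1 KO arrays. The groups overlapped, and the log2 difference of -0.05 ± 0.11 (SE) was smaller than the gap between the arrays of either group, 0.18 in WT and 0.22 in TAK1 KO. Its 95% interval ran from -0.30 to 0.21, which leaves out a fall as large as that measured for H2-K1. The difference between the changes of H2-K1 and H2-D1 was not tested, and because heavy chain genes are alike in sequence it is uncertain whether each probe reads 1 of them alone, which was not tested.

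B2m, the light chain that every class I heavy chain needs to reach the surface, read 21089.5 and 20518.5 units on the WT arrays, against 19720.0 and 20044.3 on the TAK1 KO arrays. Both TAK1 KO arrays lay just below both WT arrays, and the difference of -0.07 ± 0.09 (SE) on the log2 scale did not pass (95% interval -0.27 to 0.14, adjusted p = 0.747 in limma). A second bright probe read 20088.8 and 21288.8 units on the WT arrays, against 19118.1 and 17916.3 on the TAK1 KO arrays, again lower in both TAK1 KO arrays (log2 -0.16 ± 0.09 SE, adjusted p = 0.352 over all probes). A further, dim probe lay below 100 units on all 4 arrays, between 49.2 and 54.1 units, and says nothing about B2m.

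The peptide transporter and its partner gave no call. Tap1, a subunit of the transporter, read 116.4 and 113.9 units on the WT arrays, against 116.3 and 124.3 on the TAK1 KO arrays, close to the level of dim probes. Tap2, the other subunit, read 725.3 and 767.0 units on the WT arrays, against 700.2 and 775.3 on the TAK1 KO arrays. In both genes the groups overlapped, with log2 differences of 0.06 ± 0.09 and -0.02 ± 0.10 (SE) and intervals of -0.15 to 0.27 and -0.24 to 0.20. Tapbp, the chaperone that ties class I to the transporter, read 193.4 and 196.8 units on the WT arrays, against 183.7 and 181.6 on the TAK1 KO arrays. Both TAK1 KO arrays of Tapbp lay below both WT arrays, by a log2 difference of -0.09 ± 0.09 (SE, adjusted p = 0.609 in limma), whereas on its dimmer probe, between 122.4 and 153.7 units, the groups overlapped (log2 -0.09 ± 0.12 SE).

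The catalytic subunits of the immunoproteasome likewise gave no call. Psmb8, the chymotrypsin-like subunit LMP7, read 148.2 and 142.0 units on the WT arrays, against 131.1 and 141.3 on the TAK1 KO arrays, with both TAK1 KO arrays below both WT arrays. Psmb9, the subunit LMP2, whose start lies beside that of Tap1 in the sequence shown, read 572.8 and 633.8 units on the WT arrays, against 555.5 and 667.9 on the TAK1 KO arrays, and the TAK1 KO arrays lay on either side of the WT arrays. Psmb10, the subunit MECL-1, read 1513.4 and 1782.6 units on the WT arrays, against 1739.8 and 2055.1 on the TAK1 KO arrays, overlapping groups with the highest mean difference of the 10 genes. The log2 differences were -0.09 ± 0.09 for Psmb8, 0.02 ± 0.11 for Psmb9 and 0.20 ± 0.12 for Psmb10 (SE, n = 2 per group), with limma's adjusted p = 0.649, 0.962 and 0.341. The gap between arrays of 1 group was 0.24 on the log2 scale for Psmb10 in WT and in TAK1 KO alike, larger than its difference between the groups, and its dimmer probe differed by only 0.05 ± 0.10 (SE).

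Psme1, the alpha subunit of the PA28 activator that opens the proteasome's end, read 1594.4 and 1586.4 units on the WT arrays, against 1501.8 and 1528.0 on the TAK1 KO arrays. Both TAK1 KO arrays lay below both WT arrays on this probe (log2 -0.07 ± 0.09 SE), but its dimmer probe read 984.9 and 1064.1 units on the WT arrays, against 1089.2 and 1106.3 on the TAK1 KO arrays, higher in both TAK1 KO arrays (log2 0.10 ± 0.09 SE). The probes of Psme1 thus pointed in opposite directions, and neither passed the test (adjusted p = 0.736 and 0.608 over all probes).

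**Figure D1:**
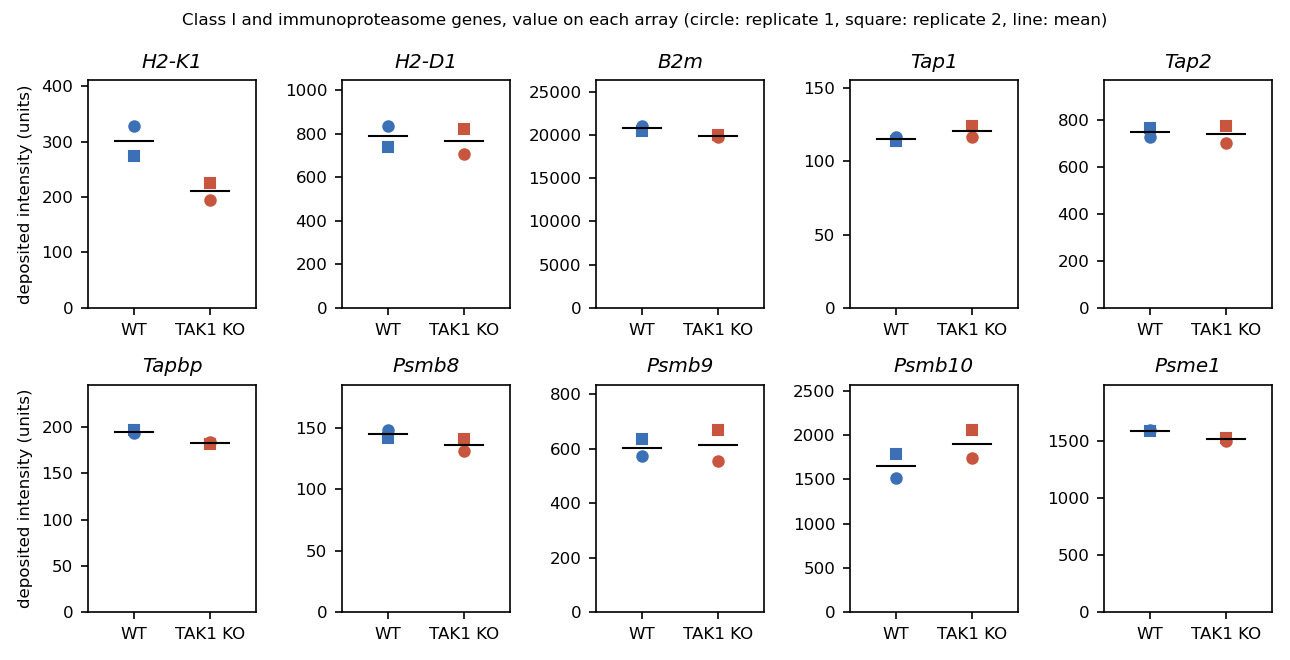
Deposited intensity, in units, of each of the 10 genes on the 4 arrays, with WT in blue and TAK1 KO in red. Circles are replicate 1, squares replicate 2, lines the group means, and every axis starts at 0. H2-K1 fell from a mean of 301.3 units to 210.6 units, and in 5 of the other genes, H2-D1, Tap1, Tap2, Psmb9 and Psmb10, the groups overlap.

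Both TAK1 KO arrays lay below both WT arrays in 5 of the 10 genes (H2-K1, B2m, Tapbp, Psmb8 and Psme1) and above them in 0 of 10. Over all genes 26.3% lay below in this way and 27.4% above, and among the brighter genes 33.8% and 37.8%. For the 9 genes that did not pass, the 95% intervals of the log2 difference ran from -0.30 at the lowest to 0.47 at the highest, and all 9 held 0. On the fold scale these bounds are a fall of 1.23-fold and a rise of 1.39-fold, and the measured differences lay between -0.09 and 0.20. A p that misses the threshold does not show that levels were equal, and these intervals state what the 4 arrays leave possible. All 9 also missed the threshold in each of 17 alternative analyses.

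**Figure D2:**
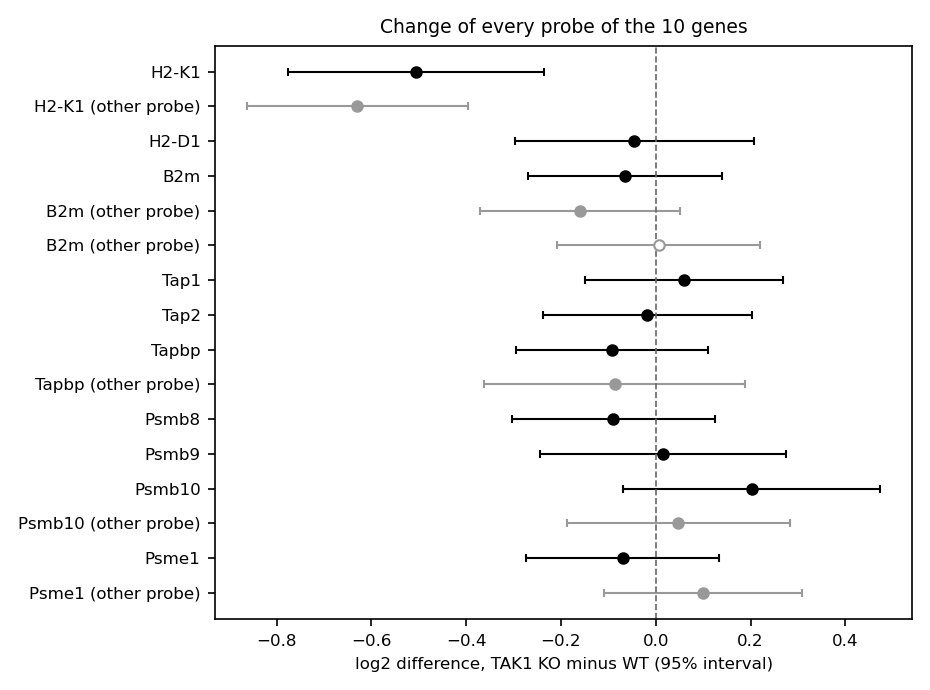
Log2 difference, TAK1 KO minus WT, of all 16 probes of the 10 genes, with 95% intervals from limma. Black points are the probe used for each gene, grey points its other probes, and the open point the B2m probe below 100 units on all 4 arrays. The intervals of both H2-K1 probes lie left of 0, and those of the other 14 probes hold 0.

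The 5 genes whose values followed the mean profile of the 10 genes most closely were Gart, Saa1, Dusp23, Ahcyl2 and Hnrnpu. Likeness was the root mean squared difference of centred log2 values over the 4 arrays, among 6759 other genes above 100 units on all of them, and it ranged from 0.0088 to 0.012. The mean profile itself stood at 0.036 and 0.025 in WT and at -0.096 and 0.035 in TAK1 KO, so that its lowest point was TAK1 KO replicate 1. With 4 arrays such a likeness is a description only.

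Among other heavy chains and class I-like proteins, 4 of 19 measured genes fell and 2 rose, with a median log2 difference of -0.14. Over all genes 7.70% were called lower and 10.5% higher, and among the brighter genes 15.8% and 20.8%. Cd1d1, which presents lipids to natural killer T cells, read 3601.5 and 4180.9 units on the WT arrays, against 2120.0 and 1733.6 on the TAK1 KO arrays, a 2.02-fold fall (log2 -1.02 ± 0.12 SE, adjusted p = 0.00055 in limma). H2-M2, a nonclassical heavy chain gene, read 68.8 and 71.3 units on the WT arrays, against 371.3 and 246.4 on the TAK1 KO arrays, and was at least 2.93-fold higher, a bound taken against the dimmest values above 100 units (adjusted p = 6.79e-05). The groups were far apart in both genes. With any 1 array left out the log2 difference stayed at -0.87 or lower for Cd1d1 and at 1.75 or higher for H2-M2.

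The remaining calls in that list were lost when single arrays were left out. Fcgrt, the neonatal Fc receptor that spares IgG and albumin from breakdown, fell 1.40-fold, H2-Bl 2.11-fold and Azgp1, a secreted class I-like glycoprotein, 1.26-fold, while H2-M3, which presents formylated peptides, rose 1.28-fold. Without WT replicate 1 or WT replicate 2 all 4 calls were lost, with adjusted p of 0.207 and 0.078 for Fcgrt, 0.118 and 0.209 for H2-Bl, 0.144 and 0.137 for Azgp1 and 0.126 and 0.117 for H2-M3. Without TAK1 KO replicate 1 Azgp1 (0.0905) and H2-M3 (0.0747) missed the threshold, and without TAK1 KO replicate 2 Fcgrt did (0.091). H2-Bl was also lost with a robust prior (0.280), and its log2 difference of -1.08 was -0.54 without TAK1 KO replicate 1 and -1.61 without TAK1 KO replicate 2. That of Fcgrt moved from -0.49 to -0.32 without TAK1 KO replicate 2. Azgp1 had a log2 difference of -0.33 on the probe used and -0.75 with its probes averaged (adjusted p = 0.000834). The list counted 1 rise and 1 fall without either WT array. H2-Q7 and H2-T23, both in the class I region and with both TAK1 KO arrays below both WT arrays, did not pass: H2-Q7 had a log2 difference of -0.30 ± 0.09 (SE, adjusted p = 0.0537) and H2-T23, the Qa-1 heavy chain, of -0.29 ± 0.10 (SE, adjusted p = 0.0774). Azgp1, H2-Q7 and H2-T23 were chosen after their values were seen.

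Of 8 measured genes of peptide trimming and loading in the ER, 1 rose and 0 fell in limma, and 1 was lower at an unadjusted p of 0.05. The limma test called 10.5% of all genes higher and 7.70% lower. The risen gene was Uggt1, the folding sensor that returns unfolded glycoproteins to calnexin, at 1.24-fold (adjusted p = 0.0477), a call lost without WT replicate 1 (0.140), WT replicate 2 (0.222) or TAK1 KO replicate 2 (0.181).

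The constitutive counterparts that the immunoproteasome subunits displace also gave no call. Psmb5, displaced by Psmb8, differed by 0.21 ± 0.10 on the log2 scale, Psmb6, displaced by Psmb9, by 0.01 ± 0.11, and Psmb7, displaced by Psmb10, by -0.15 ± 0.11 (SE, n = 2 per group), with limma's adjusted p = 0.230, 0.977 and 0.453. The values of each pair thus stood at -0.09 and 0.21, at 0.02 and 0.01, and at 0.20 and -0.15, immunoproteasome subunit first. The differences within pairs were not tested. Of all genes 18.2% passed the test, and of the 11 other subunits of the proteasome core 0 passed in either direction. Their log2 differences ran from -0.25 to 0.31. At an unadjusted p of 0.05 3 of these were higher and 2 lower, and without TAK1 KO replicate 1 1 of them rose. Psme2, the beta subunit that pairs with Psme1 in PA28, read 350.7 and 405.0 units on the WT arrays, against 302.6 and 312.1 on the TAK1 KO arrays, lower in both TAK1 KO arrays without passing (log2 -0.29 ± 0.10 SE, adjusted p = 0.0893). Psme3, which forms a separate nuclear activator, rose 1.35-fold (adjusted p = 0.0139), a call lost without WT replicate 1 (0.0966), WT replicate 2 (0.0835) or TAK1 KO replicate 2 (0.0517).

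Genes that act upstream of class I were read in the same test. Of 20 measured regulators of class I transcription 4 rose and 0 fell in limma, and 2 were lower at an unadjusted p of 0.05. For comparison, 10.5% of all genes and 20.8% of the brighter genes were called higher. The 4 rises in 20 lie above the first share and near the second. Only 13 of the 20 are that bright, however, and the risen gene Relb is not, so neither share is a like set. Nlrc5, the transactivator that drives class I, B2m and Tap1 promoters through site alpha and its neighbours, read 118.6 and 139.8 units on the WT arrays, against 88.0 and 117.2 on the TAK1 KO arrays, and did not pass (log2 -0.33 ± 0.14 SE, adjusted p = 0.162). Its value turned on the TAK1 KO arrays, at log2 -0.53 without TAK1 KO replicate 2 and log2 -0.13 without TAK1 KO replicate 1. Irf1, the interferon regulatory factor that acts on class I and Psmb9 promoters, did not pass either (log2 0.28 ± 0.10 SE, adjusted p = 0.111), and with its probes averaged its log2 difference was 0.04 (0.840). The NF-kB subunit Rela read 1208.9 and 1140.2 units on the WT arrays, against 1678.0 and 1645.5 on the TAK1 KO arrays, a 1.41-fold rise (adjusted p = 0.00482) that was lost without WT replicate 2 (0.0542).

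Irf8, a factor of the macrophage lineage, rose 1.61-fold (adjusted p = 0.00126). Nfkb2 was at least 1.2-fold higher (adjusted p = 0.00924), a call lost without WT replicate 1 (0.1) or WT replicate 2 (0.0570). Relb passed too (adjusted p = 0.0444) but lay below 100 units on all 4 arrays, and missed the threshold without WT replicate 1 (0.176), WT replicate 2 (0.182) or TAK1 KO replicate 2 (0.219). Leaving out WT replicate 1 left 2 rises in this list, and leaving out WT replicate 2 left 1.

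Among 14 measured interferon ligands, receptors and JAK kinases 4 rose and 1 fell. The shares called were 10.5% higher and 7.70% lower over all genes, and 20.8% and 15.8% among the brighter genes. Interferon gamma (Ifng) and interferon beta (Ifnb1) lay below 100 units on all 4 arrays, at 59.8 to 70.0 and 49.7 to 55.2 units. Ifngr1, a subunit of the interferon gamma receptor, read 226.0 and 221.5 units on the WT arrays, against 370.3 and 408.7 on the TAK1 KO arrays, a 1.72-fold rise (log2 0.79 ± 0.10 SE, adjusted p = 0.000549). Socs3, an inhibitor of cytokine signalling, rose 2.10-fold (adjusted p = 0.000222), Il10rb, shared by the receptors of interleukin 10 and interferon lambda, 1.46-fold, and Ifnlr1, the other chain of the interferon lambda receptor, at least 1.17-fold (adjusted p = 0.059 with its probes averaged). Ifnar2, of the type I interferon receptor, fell 1.36-fold (adjusted p = 0.0269), a call lost without WT replicate 1 (0.185), WT replicate 2 (0.0960) or TAK1 KO replicate 1 (0.105).

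Of 37 measured interferon-stimulated genes beyond the 10, 5 rose and 6 fell, with a median log2 difference of 0.01. Of the 37, 29 lay above 100 units on 2 or more arrays. The test called 10.5% of all genes higher and 7.70% lower, and 20.8% and 15.8% of the brighter genes, so both counts are near these shares. Cxcl9, a chemokine induced by interferon gamma, read 620.5 and 848.3 units on the WT arrays, against 207.1 and 443.9 on the TAK1 KO arrays, a 2.37-fold fall (log2 -1.25 ± 0.29 SE, adjusted p = 0.0169). Its log2 difference was -0.70 without TAK1 KO replicate 1 and -1.79 without TAK1 KO replicate 2, and the call was lost with a robust prior (0.260). The guanylate-binding proteins Gbp2 and Gbp3 fell 1.59-fold and 1.64-fold (adjusted p = 0.00301 and 0.00525), whereas the oligoadenylate synthetase genes Oasl1 and Oas1g rose 1.85-fold and 1.43-fold (0.0350 and 0.0221). Leaving out WT replicate 1 ended the calls of Cxcl9, Oasl1 and Oas1g (adjusted p = 0.0659, 0.0874 and 0.140), as did leaving out WT replicate 2 (0.182, 0.284 and 0.131). Without TAK1 KO replicate 2 the log2 difference of Oasl1 moved from 0.89 to 0.46, and without TAK1 KO replicate 1 to 1.32, and that of Oas1g moved from 0.52 to 0.32 without TAK1 KO replicate 2. Oas1g was also lost there (0.0810), Gbp3 without WT replicate 2 (0.0684), and Gbp2 with its probes averaged (0.105). Without WT replicate 1 the list held 2 rises and 3 falls, as against 2 and 2 without WT replicate 2, 9 and 5 without TAK1 KO replicate 1, and 5 and 10 without TAK1 KO replicate 2.

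Genes of the class II pathway, which shows extracellular peptides to CD4 T cells and is expressed by professional antigen-presenting cells, were mostly higher in TAK1 KO. Of 11 measured genes 7 rose and 0 fell, also at an unadjusted p of 0.05, with a median log2 difference of 0.77. Of all genes 10.5% were called higher, and of the brighter genes 20.8%. The 7 risen genes lay above 100 units on all 4 arrays, and the 4 not called lay below it on all 4. The alpha chain gene H2-Aa rose 2.06-fold and the beta chain genes H2-Ab1 and H2-Eb1 1.91-fold and 1.86-fold, with 95% intervals on the log2 scale that started at 0.81, 0.73 and 0.67, above the highest bound of any of the 10 class I and immunoproteasome genes (0.47). The invariant chain Cd74 rose 1.73-fold and the protease cathepsin S (Ctss) 1.78-fold. H2-Ea, which C57BL/6 mice are known not to express, read 64.3 to 73.6 units and serves as a dim reference. A difference between the lists was not itself tested.

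The cell types that carry class I were read from their markers in the same arrays. For comparison with the counts of markers here and below, 10.5% of all genes were called higher and 7.70% lower. Among the brighter genes the shares were 20.8% and 15.8%. Of 22 macrophage and monocyte markers 15 rose and 1 fell, with a summed level of 12455.4 and 11630.2 units on the WT arrays, against 28865.2 and 29608.6 on the TAK1 KO arrays. Without the brightest of them, Lyz1, the sums were 9687.0 and 8658.9 units in WT and 19213.2 and 19571.1 in TAK1 KO. Adgre1, the F4/80 antigen, rose 1.92-fold, and the fallen marker, the scavenger receptor Cd163, was 3.95-fold lower (log2 -1.98, and -1.10 with its probes averaged). Of 18 T and NK cell markers 3 rose and 0 fell, 0 also at an unadjusted p of 0.05, with sums of 2034.0 and 2119.0 units on the WT arrays, against 2396.9 and 2104.6 on the TAK1 KO arrays, and 11 of the 18 lay below 100 units on all 4 arrays. The brightest T and NK cell gene, Prf1, read 727.9, 812.1, 972.1 and 667.5 units in the same order, and without it the sums were 1306.1 and 1306.9 units in WT and 1424.8 and 1437.1 in TAK1 KO, higher in both TAK1 KO arrays. The T cell markers Cd4 and Cd8a were among the dim genes, at 56.0 to 64.1 and 53.9 to 58.2 units. The T and NK cell count was 2 without either TAK1 KO array and 1 without either WT array.

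Of 13 stellate cell markers 8 rose and 1 fell, neutrophil markers rose in 3 of 11 and bile duct markers in 2 of 7 (1 without WT replicate 1). Of 10 B and plasma cell markers 0 passed in either direction in limma's test or at an unadjusted p of 0.05, and their sums were 1124.9 and 1122.5 units on the WT arrays, against 1045.8 and 1188.0 on the TAK1 KO arrays. Without the brightest, Sdc1, the latter lay slightly below the former, at 634.4 and 632.9 units against 663.0 and 645.6. Of these 10 markers 8 lay below 100 units on every array. The sums without Sdc1 are thus made up mostly of dim values and do not show a change in B or plasma cells. Dendritic cell markers rose in 1 of 10 cases (0 without either WT array, 2 without TAK1 KO replicate 1). Only 1 of the 10 dendritic cell, 1 of the 11 neutrophil and 1 of the 7 bile duct markers lay above 100 units on all 4 arrays. A dim marker that was not called is thus not shown to be unchanged. Endothelial markers fell in 3 of 15 (2 without WT replicate 1, 1 without WT replicate 2, with 1 rise without WT replicate 2 or TAK1 KO replicate 1). Their sums were 9461.6 and 9628.9 units on the WT arrays, against 9719.5 and 9854.0 on the TAK1 KO arrays, but Clec4g alone gave 4884.0 and 4973.9 of the WT and 5631.2 and 5775.4 of the TAK1 KO units. Without Clec4g the sums were 4577.6 and 4655.0 units in WT and 4088.3 and 4078.6 in TAK1 KO, lower in both TAK1 KO arrays. Hepatocyte markers fell in 1 of 17 (3 without TAK1 KO replicate 1), and 2 rose without TAK1 KO replicate 2. The part of these marker shifts in the values of the class I genes was not tested.

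**Figure D3:**
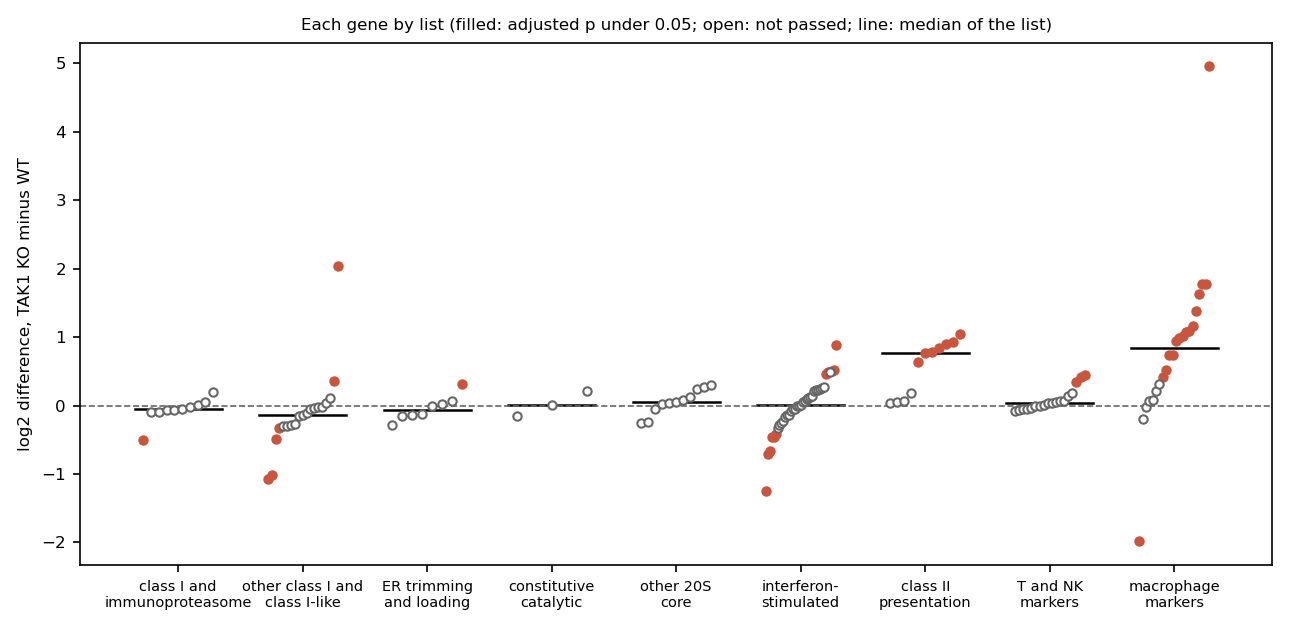
Log2 difference, TAK1 KO minus WT, of each measured gene in 9 lists, with filled points for an adjusted p under 0.05, open points for genes that did not pass and a line at the median of each list. The 10 class I and immunoproteasome genes lie near 0 apart from H2-K1, at -0.51, while the class II and macrophage lists have medians of 0.77 and 0.84.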

How the data were processed

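Whole-liver RNA from 2 WT and 2 TAK1 KO samples was hybridised as biotinylated cRNA to Illumina arrays, per the labels' protocols. The deposited table holds linear intensity per probe, with columns named by sample. Its values are already normalized between arrays (95th percentiles of 1704 to 1714 units) with no detection p; the method is one not given in the sources used here. A further, non-normalized table was left out, since its 4 columns match no label. Titles gave groups and replicate numbers.

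Background was corrected with normexp (offset 50) in limma 3.58.1 (R 4.3.3), and log2 was taken. Of 25697 probes 23978 had 1 gene in the platform annotation, 0 had several and 1719 were unnamed here; symbols were updated to the GRCm38.p6 RefSeq table, which all but 11 identifiers matched. For each of 16593 genes the probe of highest mean log2 value was used. Genotypes were compared with lmFit and eBayes (two-sided, 2 residual and 6.84 prior degrees of freedom), p-values adjusted across all genes by Benjamini-Hochberg and called under 0.05. Adjusted p and 95% intervals are limma's throughout. Where 1 group lay below 100 units on both arrays, a lower bound replaces the fold: the brighter group's mean log2 value against, on each dim array, the higher of the gene's value and the lowest value above 100 units.

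With 2 arrays a group the smallest exact permutation p is 0.333, so none was used. The procedure was run on 20 simulated sets with noise drawn from the fit's own variance model and 200 of 16593 genes changed. It called 39.6% of changes of log2 0.5 and 98.4% of changes of log2 1. The data hold many more called genes, and the noise follows the model, so these sets do not check the calls in the data. No batch, slide or scan is named in the labels. The genes and lists were chosen with earlier results of these data known. Named genes are the 10 genes with all probes, up to 4 passed genes of each other list with the largest change plus up to 2 against its main direction, and Nlrc5, Irf1, Psme2, Psmb5, Psmb6, Psmb7 and Map3k7; not every gene so chosen is given. Ifng, Ifnb1, Cd74, H2-Ea, Adgre1, Cd4, Cd8a, Prf1, Clec4g and Sdc1 fall outside that rule and were named after their values were seen. Fixed alternatives covered background correction, normalization, dim probes, probe choice, variance prior, array weights, a replicate block and each array left out; choosing probes by linear mean, and marker sums without the brightest gene, were added after the data were seen.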

Additional observations from a re-analysis of the deposited data

How the results depend on the processing

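The count of the 10 genes called (0 higher, 1 lower) was the same under every alternative except without WT replicate 1, where 0 were lower, a range of 0 to 1 over the arrays left out. H2-K1 kept its direction throughout, with log2 differences of -0.37 to -0.74 and adjusted p of 0.000294 to 0.152. Over all genes the count of 1744 higher and 1278 lower ranged from 1036 to 1877 higher and from 755 to 1434 lower with 1 array left out; fewer arrays enter those fits, and the single array left in a group is assumed to vary like the other group. With probes chosen by linear mean, 1743 were higher and 1279 lower, and with 1 array left out as well 1035 to 1875 and 759 to 1429, including 1068 and 759 without WT replicate 1 and 1035 and 765 without WT replicate 2. The lowest count with all arrays came with an offset of 16 (1374 and 949). With the replicate block 1761 were higher and 1312 lower, H2-K1 had an adjusted p of 0.0262, and of the named genes only Uggt1 lost its call (0.0612). The titles give both groups the numbers 1 and 2 without saying that a number marks a shared litter or day, and the deviations of same-numbered arrays correlated at 0.0446 over genes, so the numbers were not taken as pairs. Of 983 values of 58 other named genes over 17 alternatives, 125 missed a threshold that the reported value passed, 3 passed one that it missed, and 0 called values turned their direction. These 58 are the genes picked by the rule, not all of which are given here, plus Azgp1, H2-Q7, H2-T23 and Cd74. Other genes given here, such as Adgre1, Prf1, Clec4g and Sdc1, were not followed over the alternatives. With an offset of 16 Uggt1 (0.181), Azgp1 (0.166), Fcgrt (0.0847), H2-M3 (0.0617) and Psme3 (0.0582) missed the threshold, with quantile normalization Azgp1 (0.108), Uggt1 (0.0639) and Oasl1 (0.0512), with the robust prior H2-Bl (0.280), Cxcl9 (0.260), Oasl1 (0.207) and Uggt1 (0.0823), and with probes averaged Ifnar2 (0.263), Gbp2 (0.105), Oas1g (0.101), Oasl1 (0.0795) and Ifnlr1 (0.059). Among the cell markers of the 58 genes, Oit3 (endothelial, 0.130) and Ccl5 (T and NK cell, 0.081) also missed it with an offset of 16. Quantile normalization lost Ccl5 (0.0687), and the robust prior Ccl5 (0.0609) and Oit3 (0.0547). With probes averaged Oit3 (0.272), Siglech (dendritic cell, 0.214) and Cd8b1 (T and NK cell, 0.0991) missed it. With an offset of 16 the log2 differences of the dim genes Ifnlr1, Nfkb2 and Relb moved from 0.58, 0.60 and 0.34 to 0.89, 0.91 and 0.64. With 2 arrays a group, small changes of genes near 100 units, such as Tap1 and Psmb8, are the least well measured.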
